A study of Mus musculus with 20 samples.

Results

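The immediate early genes of neuronal activity were followed in the hippocampus and cortex of mice that overexpress Ube3a. The 10 genes were Fos, Fosb, Junb, Egr1, Egr2, Egr3, Egr4, Npas4, Nr4a1 and Arc, taken by gene symbol from the 47729 genes of the count files, and all 10 passed the filter on low counts in every comparison. Neurons switch such genes on within minutes of synaptic activity, without new protein synthesis, when calcium entry and the Ras and MAP kinase pathway act on factors such as CREB and SRF that already sit at their promoters. Most of these genes encode transcription factors that go on to set a later wave of genes. Arc is the exception: it encodes a synaptic protein that promotes the internalization of AMPA-type glutamate receptors, and it has been proposed as a target of UBE3A, the ubiquitin ligase whose loss causes Angelman syndrome.

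RNA came from both tissues of 5 WT mice (numbered 1 to 5 in the labels) and 5 Ube3aOE mice (6 to 10), all C57Bl/6J pups at postnatal day 7, so 20 libraries were made from 10 mice. The Ube3aOE genotype, also written Ube3a+2, is a floxed BAC transgene that adds 2 copies of mouse Ube3a with its own flanking sequence, and most of the study's later experiments used mice of 1 founder line. The labels give no stimulus, handling or time of day, and what the pups met before dissection is not known here. The question put to these genes was whether the extra Ube3a changed their levels in either tissue, and how their levels differed between the tissues. Each library is RNA of a whole dissected tissue, in which fewer cells of a type and less RNA per cell cannot be told apart.

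Counts on genes summed to between 14191093 and 16752326 reads per library. Ube3a was higher in Ube3aOE than in WT mice by 1.33 on the log2 scale in hippocampus (standard error 0.11, adjusted P = 0.00048) and by 1.31 in cortex (standard error 0.11, adjusted P = 0.000822), with no overlap of the genotypes in either tissue. Neuron markers were high everywhere (8 genes, summed to between 5058 and 6014 CPM, where CPM are reads scaled to a common library size), and hippocampus markers (9 genes) lay between 605 and 904 CPM in hippocampus against 254 to 402 CPM in cortex. Some libraries stood apart. The hippocampus of WT mouse 2 had the most neocortex markers (8 genes, 651 CPM against 282 to 438 CPM in the other 9). Choroid plexus markers (6 genes) reached 1967 CPM in the hippocampus of Ube3aOE mouse 7 and 349 CPM in that of mouse 9 (8.7 to 33.6 CPM elsewhere in hippocampus). Thalamus markers (5 genes) reached 1172 CPM in mouse 10, 595 CPM in mouse 7 and 498 CPM in WT mouse 4 (133 to 222 CPM in the other 7), and striatum markers (5 genes) 387 CPM in mouse 9 (41.5 to 48.6 CPM in the rest). In cortex, Ube3aOE mice 8 and 9 had the most hippocampus markers, and WT mouse 2 had the smallest share of reads on genes (69.7%). None of the markers was at 0 in a whole group. Sex-linked genes went against the labelled sex in 4 libraries, both tissues of 2 WT mice.

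Sequences before the transcription starts are shown because these genes are known for sharing binding sites there, above all the cAMP response element (CRE) that CREB binds and the CArG box that SRF binds. RefSeq windows on GRCm38.p6 were held for 7 of the 10 genes (not for Arc, Egr1 and Egr3). All 7 had at least 1 short CRE (TGACG, the core of that element, on either strand) in the 250 bases before an annotated start, while 19.8% of all 27025 genes had one in any of their windows. Per window it was 9 of 11, of which 3 of Egr2 overlap, against 17.8% of all 32851 windows. The full CRE (TGACGTCA) was in none of their windows and in 1.55% of all windows. A CArG box was found in these windows for Egr2 only, and in 1.47% of all windows. Sites beyond the 250 bases or with other letters were not searched, so a gene without a match here can still have one. Short CREs and CArG boxes are in capitals below, and each sequence ends at the start of the transcript or at the nearest annotated exon, except the 22 bases of Egr2, which span its CArG box and a short CRE.
Fos (chr12:85473640-85473889, plus strand): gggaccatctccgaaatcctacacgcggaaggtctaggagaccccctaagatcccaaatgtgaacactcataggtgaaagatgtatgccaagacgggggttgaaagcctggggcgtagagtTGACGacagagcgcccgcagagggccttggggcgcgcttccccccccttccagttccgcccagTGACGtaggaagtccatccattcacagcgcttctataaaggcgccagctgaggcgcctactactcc
Fosb (chr7:19310052-19310295, minus strand): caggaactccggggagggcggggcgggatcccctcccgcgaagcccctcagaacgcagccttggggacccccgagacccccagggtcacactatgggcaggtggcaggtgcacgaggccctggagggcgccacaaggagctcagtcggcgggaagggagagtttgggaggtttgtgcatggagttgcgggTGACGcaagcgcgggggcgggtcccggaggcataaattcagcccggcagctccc
Junb (chr8:84978749-84978998, minus strand): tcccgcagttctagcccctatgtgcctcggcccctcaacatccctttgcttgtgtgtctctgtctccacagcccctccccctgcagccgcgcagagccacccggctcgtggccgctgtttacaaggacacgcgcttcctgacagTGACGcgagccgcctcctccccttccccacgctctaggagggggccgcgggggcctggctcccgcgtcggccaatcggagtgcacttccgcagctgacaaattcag
Egr4 (chr6:85513590-85513839, minus strand): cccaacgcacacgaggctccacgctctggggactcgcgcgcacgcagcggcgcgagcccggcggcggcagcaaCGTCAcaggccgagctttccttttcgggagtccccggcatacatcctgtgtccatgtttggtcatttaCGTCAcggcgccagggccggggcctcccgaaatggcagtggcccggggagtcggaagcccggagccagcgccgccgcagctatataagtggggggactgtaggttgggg
Nr4a1 (chr15:101266596-101266845, plus strand): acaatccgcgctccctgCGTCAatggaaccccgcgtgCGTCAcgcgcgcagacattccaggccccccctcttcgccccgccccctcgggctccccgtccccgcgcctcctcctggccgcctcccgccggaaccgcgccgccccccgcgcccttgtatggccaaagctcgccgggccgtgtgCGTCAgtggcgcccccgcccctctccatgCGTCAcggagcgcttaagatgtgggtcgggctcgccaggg
Egr2 (chr10:67537797-67537818, plus strand): CCATATATGGgcagcgaCGTCA

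Fos has 2 short CREs, the nearer one 66 to 62 bases before the start, and a TATA box (TATAAA, in 7.59% of all windows) 33 to 28 bases before it. Nr4a1 has 4 short CREs, the most of the set, and 1 EGR site (GCGNGGGCG, in 4.70% of all windows), the sequence that the EGR family binds. Fosb has 1 short CRE and 1 EGR site, Junb has 1 short CRE, Egr4 has 2, and Npas4 has 2, in a window that lies within an annotated exon and is not shown. Egr2 has 5 annotated windows, of which 3 that overlap hold 2 short CREs and the CArG box shown, and 1 holds another CArG box. The AP-1 site (TGACTCA or TGAGTCA) was in none of the 11 windows of the 7 genes, and in 4.46% of all windows. These are matches of letters, and binding was not measured.

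At postnatal day 7 the genes covered a wide range of levels. Per kilobase of exon, Egr1 was the highest in all 4 groups, at 10.1 CPM per kb ± 2.43 (SD, n = 5) in WT hippocampus and 9.73 ± 0.28 in WT cortex, above 68.5% and 67.4% of the 15620 genes compared. Nr4a1, an orphan nuclear receptor, followed at 7.20 ± 0.39 and 7.09 ± 0.90 CPM per kb. In WT hippocampus the ranges of Egr1, Nr4a1 and Egr3 (6.06 ± 0.56 CPM per kb) did not overlap. Egr3, Arc (5.71 ± 1.21), Junb (5.17 ± 0.55), Fos (4.38 ± 0.70) and Egr4 (3.30 ± 0.83) came next, and each overlapped its neighbour in that order. Npas4 (1.07 ± 0.21 CPM per kb) and Egr2 (0.855 ± 0.32) overlapped each other and lay below Egr4 without overlap. Fosb was the lowest, at 0.291 ± 0.075 CPM per kb, which is 20 to 40 reads per library.

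In WT cortex the order was the same at both ends and differed in the middle. Junb (4.30 ± 1.02 CPM per kb) and Egr3 (4.14 ± 0.74) overlapped below Nr4a1, followed by Egr4 (2.81 ± 0.56), Arc (2.28 ± 0.11) and Fos (2.06 ± 0.49), each of which overlapped its neighbour. Fos lay above Npas4 (0.974 ± 0.057 CPM per kb) in all 5 mice without overlap. Arc thus had rank 4 of the 10 in WT hippocampus and rank 6 in WT cortex. The spread of the values in WT mice also differed among the genes. In cortex the coefficient of variation of Egr1 was 2.86%, lower than that of all but 3.34% of genes, and that of Arc was 4.82%, while Fosb varied by 42.7%. In hippocampus Nr4a1 varied least (5.45%) and Egr2 most (37.6%). These coefficients include the noise of counting reads, which weighs more on genes of few reads, and the 3.34% is over genes of all levels. Reads in WT cortex were 565 to 729 for Egr1, 90 to 117 for Arc and 10 to 32 for Fosb. With 5 mice, a low coefficient does not show that a gene varies little between mice. The plot of levels shows each library.

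**Figure D1:**
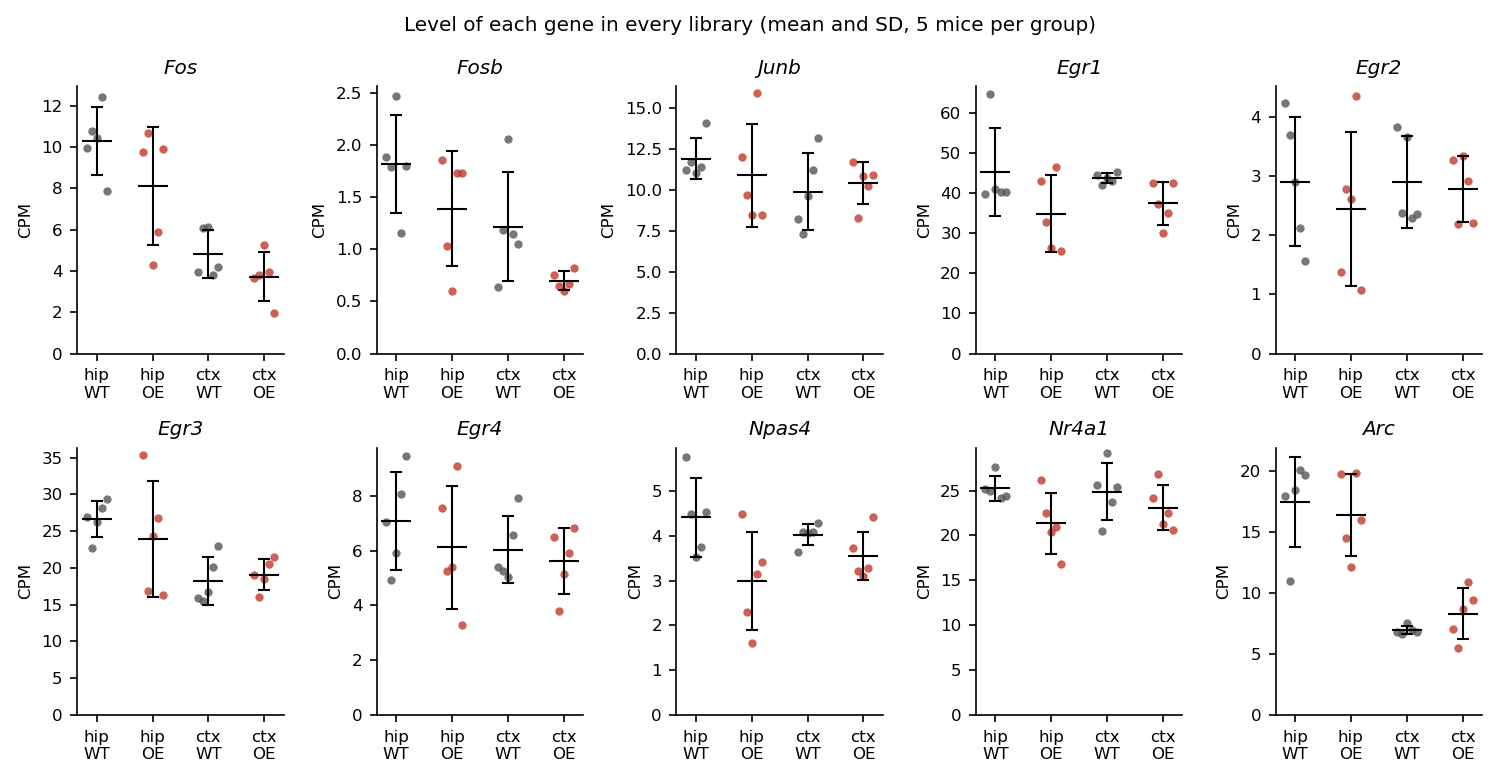
Level of each gene (CPM, reads scaled to a common library size after TMM normalization) in the hippocampus (hip) and cortex (ctx) of WT (grey) and Ube3aOE mice (OE, red), 1 point per mouse, with the mean and SD as black bars. Arc separates the tissues without overlap, from 11.0 to 20.1 CPM in hippocampus and from 5.53 to 10.9 CPM in cortex, and the genotypes overlap for every gene in both tissues.

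The tissues were compared over all 20 libraries, in a fit without a term for the mouse. Of the 10 genes, 4 passed the test and all 4 were higher in hippocampus: Arc, Fos, Fosb and Egr3. Of all 15661 genes tested, 50.7% passed and 26.2% were higher in hippocampus, so 4 of 10 is a share below the first and above the second. The median log2 fold change of the 10 genes was 0.17.

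Arc differed most. In hippocampus its level was 18.0, 11.0, 18.5, 20.1 and 19.7 CPM in WT mice 1 to 5 and 19.8, 14.5, 12.1, 19.8 and 16.0 CPM in Ube3aOE mice 6 to 10. In cortex it was 6.82, 6.68, 7.54, 6.95 and 6.82 CPM in the WT mice and 7.07, 5.53, 8.71, 10.9 and 9.40 CPM in the Ube3aOE mice. Every hippocampus library was above every cortex library, which held for 5.64% of all genes and for no other of the 10. The fold was 2.22 (log2 1.15, standard error 0.12, adjusted P = 1.82e-07), and hippocampus was higher in 10 of 10 mice (exact permutation test swapping the tissues within a mouse, two-sided P = 0.00195, the smallest it can give). The lowest Arc value in hippocampus belonged to WT mouse 2, the library with the most neocortex markers, and the part of those markers in it was not tested.

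Fos, Fosb and Junb encode subunits of the AP-1 transcription factor. Fos in hippocampus was 9.94, 10.8, 10.4, 12.4 and 7.89 CPM in WT mice 1 to 5 and 9.77, 10.7, 4.28, 5.90 and 9.93 CPM in Ube3aOE mice 6 to 10. In cortex it was 3.95, 6.09, 6.12, 3.83 and 4.22 CPM in the WT mice and 3.66, 3.79, 5.25, 3.96 and 1.96 CPM in the Ube3aOE mice. The tissues overlapped only through Ube3aOE mice 8 and 9, whose Fos was low in hippocampus. Fos was 2.15-fold higher in hippocampus (log2 1.11, standard error 0.17, adjusted P = 2.15e-05) and higher in 9 of 10 mice, mouse 8 being the exception. Fosb was 1.72-fold higher (log2 0.78, standard error 0.22, adjusted P = 0.00496) and again higher in 9 of 10 mice. Its level was 0.595 to 2.47 CPM in hippocampus and 0.597 to 2.06 CPM in cortex, or 10 to 40 reads per library. Without the libraries that stood apart by markers or reads on genes, Fosb kept a log2 fold change of 0.72 but not its call (adjusted P = 0.0586). Junb was 8.45 to 15.9 CPM in hippocampus and 7.27 to 13.1 CPM in cortex, a log2 difference of 0.17 (95% interval -0.08 to 0.41) that did not pass. Junb shares 173 of its 2301 exonic bases with Prdx2 on the opposite strand, whose level was 390 to 493 CPM, and the strand setting of the counting is not given in the sources used here.

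Of the EGR family of zinc finger factors only Egr3 passed, and differences between the genes of the family were not tested. Egr3 was 22.8 to 29.4 CPM in WT and 16.4 to 35.4 CPM in Ube3aOE hippocampus, against 15.4 to 23.0 CPM in WT and 16.0 to 21.5 CPM in Ube3aOE cortex. It was 1.35-fold higher in hippocampus (log2 0.44, standard error 0.12, adjusted P = 0.00443), in 9 of 10 mice. Egr1 did not pass: its level was 25.5 to 64.7 CPM in hippocampus and 30.0 to 45.2 CPM in cortex, with a log2 fold change of -0.03 (95% interval -0.27 to 0.21). Its highest value, 64.7 CPM, was that of WT mouse 2 in hippocampus, where the other 4 WT mice had 39.9 to 40.9 CPM. Egr2, better known from Schwann cells and the hindbrain, had a log2 fold change of -0.10 (-0.56 to 0.36), and Egr4 one of 0.17 (-0.16 to 0.51). Npas4, a factor induced by neuronal calcium entry in particular, differed by -0.06 on the log2 scale (-0.35 to 0.24), and Nr4a1 by -0.05 (-0.20 to 0.11). The interval of Nr4a1 was the narrowest of the 10, a fold between 0.871 and 1.08.

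**Figure D2:**
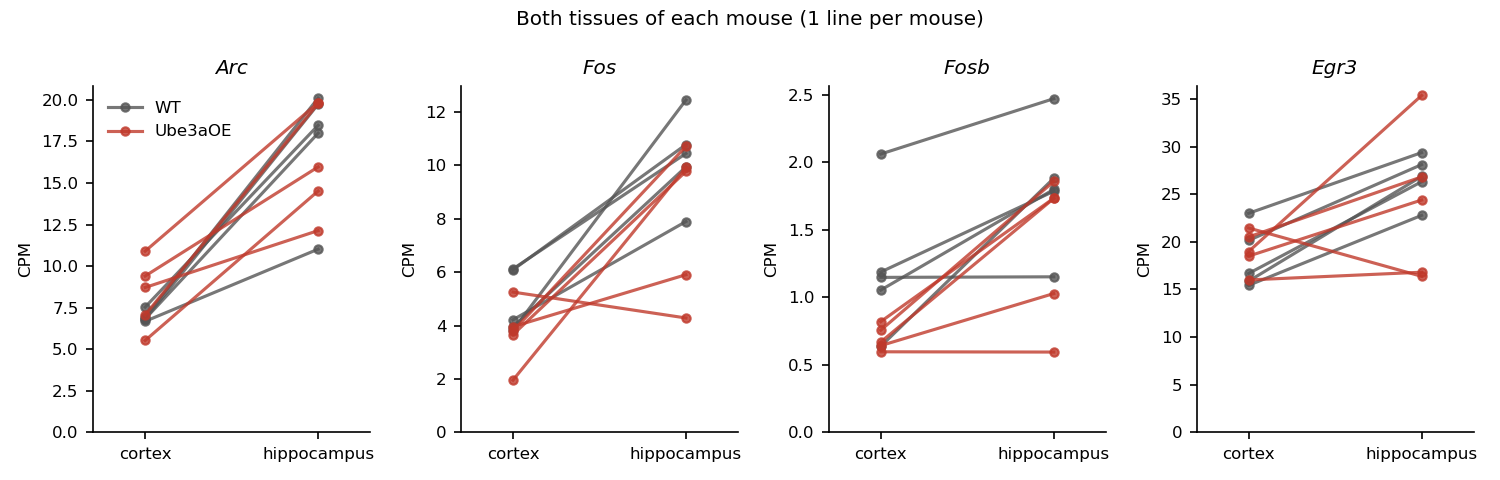
CPM of the 4 genes that passed the test between tissues, with 1 line joining the cortex and hippocampus libraries of each mouse (WT grey, Ube3aOE red). Arc rises from cortex to hippocampus in 10 of 10 mice and Fos, Fosb and Egr3 in 9 of 10.

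Within the genotypes the difference between tissues was similar in size for Fos, with a log2 fold change of 1.09 in WT (adjusted P = 0.00133) and 1.12 in Ube3aOE mice (adjusted P = 0.00169). For Arc it was 1.33 in WT (adjusted P = 7.86e-06) and 0.98 in Ube3aOE mice (adjusted P = 0.00023). Egr3 passed in WT (0.55, adjusted P = 0.0144) and not in Ube3aOE mice (0.33, adjusted P = 0.145). Fosb passed in Ube3aOE (0.99, adjusted P = 0.0215) and not in WT mice (0.57, adjusted P = 0.131). These calls depended on single mice: Egr3 lost its call in WT without mouse 1 or 3 and gained one in Ube3aOE mice without mouse 10, and Fosb lost its call without mouse 6, 9 or 10. Of all genes, 37% passed in WT and 32.9% in Ube3aOE mice. The difference between those differences, tested as an interaction, passed for 0 of the 10 genes and for 0% of the 15661 tested by edgeR, DESeq2 or limma voom, while 598 genes had an unadjusted P under 0.05 in edgeR and none of them was one of the 10. The interaction was -0.35 on the log2 scale for Arc (95% interval -0.86 to 0.17), 0.03 for Fos (-0.68 to 0.74), 0.41 for Fosb (-0.49 to 1.31) and -0.22 for Egr3 (-0.72 to 0.27).

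The genotypes were compared within each tissue. None of the 10 genes passed in hippocampus or in cortex, where Ube3a alone passed of all genes (0.00657% of 15220 and 0.00669% of 14947 genes tested). At an unadjusted P under 0.05 there were 2 of 10 in each tissue, beside 7.21% of all genes in hippocampus and 4.44% in cortex. No gene of the 10 had groups that did not overlap, which 1.12% of all genes had in hippocampus and 0.69% in cortex.

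In hippocampus all 10 log2 fold changes of Ube3aOE against WT mice were below 0, from -0.09 for Arc to -0.56 for Npas4, with a median of -0.25, while the median of all genes was 0.0037 and 51.1% of them lay above 0. Directions of genes read in the same libraries are not independent. With the genotype means removed, 36 of 45 pairs of the 10 genes correlated positively there. Without Ube3aOE mouse 8, 9 of the 10 lay below 0 and 0 had an unadjusted P under 0.05. Nr4a1 was 25.2, 24.9, 27.6, 24.1 and 24.4 CPM in WT mice 1 to 5 and 26.1, 22.5, 20.3, 20.9 and 16.8 CPM in Ube3aOE mice 6 to 10. All but mouse 6 lay below every WT mouse, a log2 fold change of -0.24 (standard error 0.10, unadjusted P = 0.032, adjusted P = 0.665). Npas4 was 5.76, 4.49, 3.52, 3.74 and 4.53 CPM in the WT mice and 4.50, 2.30, 1.61, 3.14 and 3.41 CPM in the Ube3aOE mice, again with mouse 6 among the WT values (log2 -0.56, standard error 0.24, unadjusted P = 0.0382, adjusted P = 0.665). For Arc the log2 fold change was -0.09 (95% interval -0.46 to 0.29), so that its fold lay between 0.725 and 1.22. In both tissues these counts measure Arc RNA. ARC protein, on which a ubiquitin ligase would act, was not measured here.

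The Ube3aOE mice differed among themselves. The summed level of the 10 genes was 118, 106 and 103 CPM in Ube3aOE mice 7, 8 and 10, and 161 and 154 CPM in mice 6 and 9, against 150 to 161 CPM in the 5 WT mice. The sum is carried by the genes of high level, Egr1, Egr3 and Nr4a1, and mouse 9 lay below every WT mouse for Nr4a1, Npas4 and Fos all the same. Mice 7 and 10 had the highest thalamus markers and mouse 7 the highest choroid plexus markers, and mouse 8 had 222 CPM of thalamus markers. WT mouse 4 had 498 CPM of them and a summed level of 152 CPM, inside the range of the other WT mice. The part of these markers in the levels was not tested. With the hippocampus libraries of mice 2, 4, 7, 9 and 10 left out, WT mice 1, 3 and 5 and Ube3aOE mice 6 and 8 remained. Then 9 of the 10 log2 fold changes were below 0 with a median of -0.25, none had an unadjusted P under 0.05, and Egr3 changed sign to 0.11. Mice 6 and 8 were far apart in summed level (161 and 106 CPM). With so few mice this fit cannot decide whether the difference holds without those libraries.

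In cortex 7 of the 10 log2 fold changes were below 0, with a median of -0.11. Fosb was 0.638, 1.19, 2.06, 1.15 and 1.05 CPM in WT mice 1 to 5 and 0.757, 0.643, 0.597, 0.670 and 0.820 CPM in Ube3aOE mice 6 to 10. The Ube3aOE mice lay within 10 to 13 reads and the WT mice within 10 to 32 reads (log2 -0.80, standard error 0.29, unadjusted P = 0.0172, adjusted P = 0.96). Egr1 was 44.4, 41.9, 43.7, 43.0 and 45.2 CPM in the WT mice and 42.5, 37.2, 30.0, 35.0 and 42.5 CPM in the Ube3aOE mice, with mice 6 and 10 inside the WT range (log2 -0.22, standard error 0.09, unadjusted P = 0.023, adjusted P = 0.96). Arc went the other way, at 0.26 on the log2 scale (95% interval -0.08 to 0.60, adjusted P = 0.96). Its 5 WT values lay between 6.68 and 7.54 CPM and its Ube3aOE values between 5.53 and 10.9 CPM, the highest being those of mice 8, 9 and 10. Mice 8 and 9 were also the 2 with the most hippocampus markers in cortex and with the most meninges markers (5 genes, 284 and 167 CPM, against 53.3 to 118.6 CPM in WT and 52.5 to 140.7 CPM in the other Ube3aOE mice). Mouse 8 held the lowest cortex values of Egr1 and Fosb. Mouse 10, with 9.40 CPM of Arc, had 284 CPM of hippocampus markers in cortex, against 402 and 400 CPM in mice 8 and 9. The part of these markers was not tested. Without the cortex libraries of mice 2, 8 and 9 the log2 fold change of Arc was 0.06. Mice 8 and 9 had high Arc values, so leaving them out lowers the fold change whatever their markers. With the cortex libraries of mice 2, 8 and 9 left out, WT mice 1, 3, 4 and 5 and Ube3aOE mice 6, 7 and 10 remained. Among these fewer mice, 9 of the 10 fold changes were below 0 and none had an unadjusted P under 0.05.

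**Figure D3:**
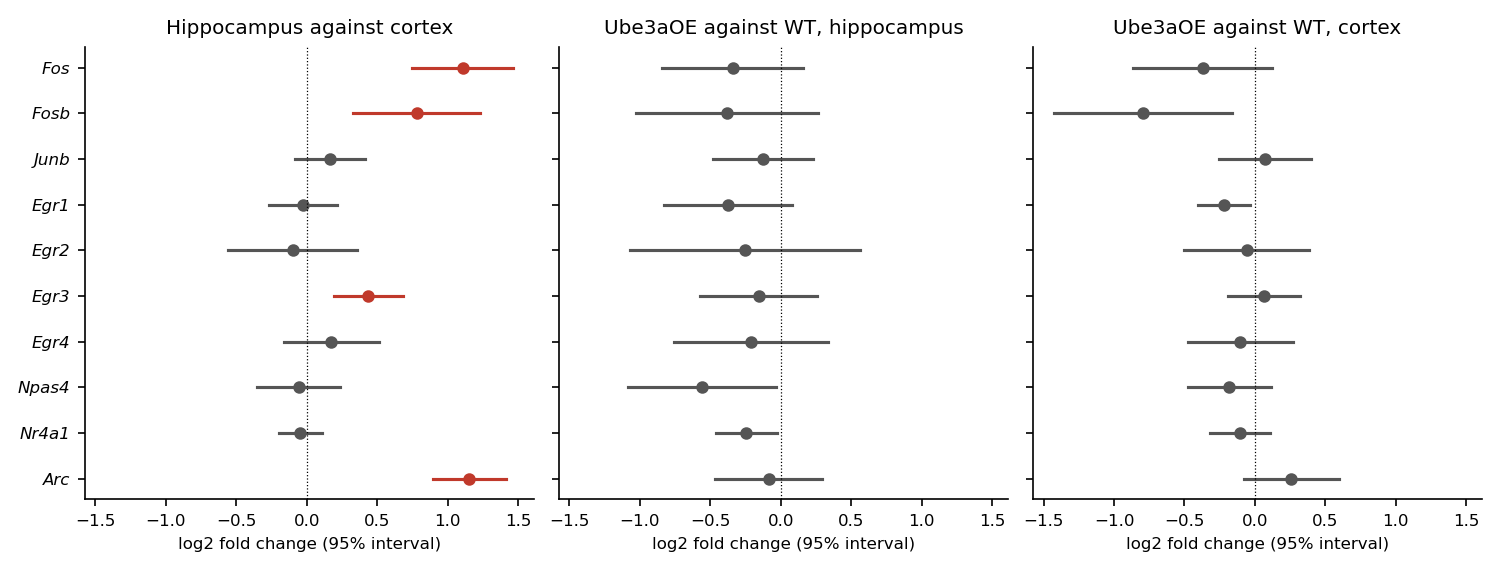
Log2 fold change with its 95% interval for each gene, from edgeR, between tissues (left) and between genotypes in hippocampus (middle) and cortex (right); red marks an adjusted P under 0.05. Between tissues Arc, Fos, Fosb and Egr3 lie above 0, while between genotypes none of the 10 passes in either tissue.

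Other genes of the response were read from lists. Of 32 further rapid response genes that passed the filter (of 33), 14 were higher and 4 lower in hippocampus than in cortex, with a median log2 fold change of 0.20. Nr4a3, a nuclear receptor of the family of Nr4a1, was higher by 1.95 (standard error 0.16, adjusted P = 1.88e-08). Btg2, an antiproliferative gene, was higher by 1.11 (standard error 0.10) and Jun, the partner of FOS in AP-1, by 0.61 (standard error 0.07), while Plk2, a kinase, was lower by 0.54 (standard error 0.06). Of 14 genes of the later wave, 9 were higher and 3 lower, with a median of 0.70. Bdnf, the neurotrophin, rose by 1.97 from cortex to hippocampus (standard error 0.20, from 6.20 to 24.1 CPM), Nptx2, a synaptic pentraxin, by 1.56 (standard error 0.13), Vgf, a secreted neuropeptide precursor, by 1.47 (standard error 0.13), and Rasgrp1, an exchange factor for Ras, by 1.76 (standard error 0.16).

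Of 27 genes upstream of the response, 3 were higher and 9 lower in hippocampus, with a median of -0.03. Mef2c, a transcription factor of cortical neurons, was lower by 3.04 (standard error 0.33, from 1650 CPM in cortex to 201 CPM). Mapk3, the kinase ERK1, was lower by 0.65 (standard error 0.04) and Rps6ka2, a kinase downstream of ERK, by 0.77 (standard error 0.07), while Camk2a, the calcium and calmodulin dependent kinase of excitatory synapses, was higher by 0.94 (standard error 0.12). Of 9 partners of ARC, 1 was higher (Rnf216, a ubiquitin ligase, 0.16, standard error 0.04) and 3 lower (Cacng2, Dlg4 and Ap2m1, by 0.27, 0.20 and 0.08). The call of Ap2m1 was lost in 4 of the 18 alternatives. Heat shock genes, a general stress response, were 4 higher and 1 lower of 8. Hspa1b was among them at 1.56 (standard error 0.20) but only 0.401 CPM in cortex and 1.20 CPM in hippocampus. The median of all genes in this comparison was 0.004, and 50.7% of them passed. Between genotypes none of these lists held a gene that passed in either tissue, other than Ube3a itself among the partners of ARC.

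**Figure D4:**
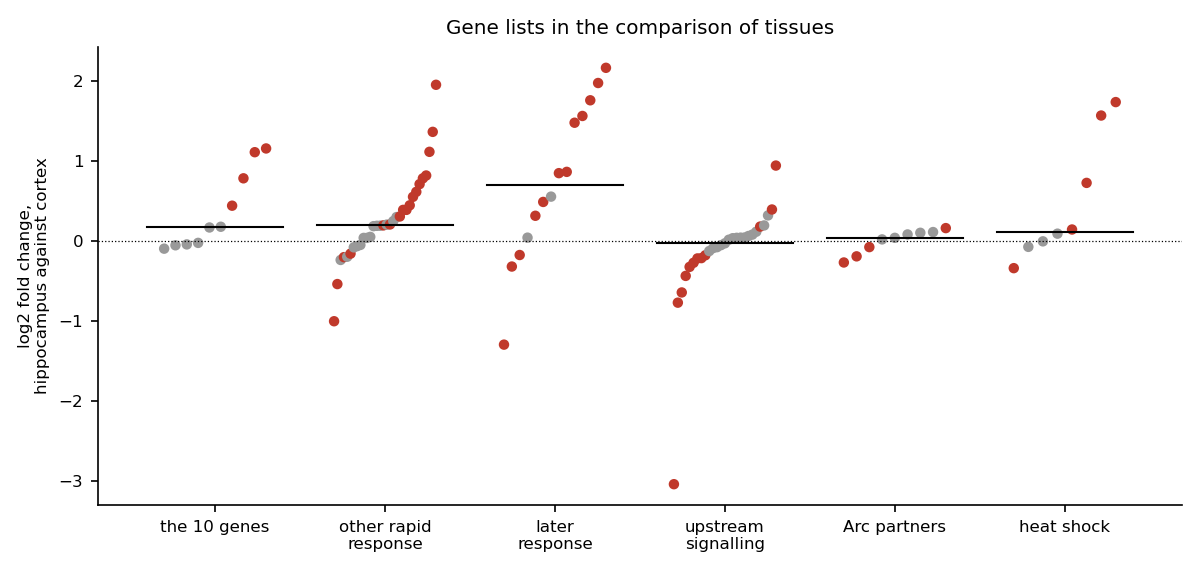
Log2 fold change of hippocampus against cortex for every gene of each list that passed the filter (1 point per gene, red for an adjusted P under 0.05, black bar for the median). The medians are 0.17 for the 10 genes, 0.20 for other rapid response genes, 0.70 for the later wave and -0.03 for upstream genes.

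Relations over the 10 mice were computed from log2 CPM with the genotypes pooled, and 0 of the relations between tissues or with Fos passed with the genotype means removed either. Between the hippocampus and cortex of a mouse, 0 of 10 genes passed after adjustment. The highest correlations were those of Nr4a1 (r = 0.64, permutation P = 0.0436, adjusted P = 0.248, rho = 0.55, permutation P = 0.105, r without the 2 most extreme mice 0.37) and Npas4 (r = 0.63, permutation P = 0.0496, adjusted P = 0.248, rho = 0.49, permutation P = 0.155, r without the 2 most extreme mice 0.65). Across all genes the median r between tissues was 0.27, and 12.2% and 13.3% of genes were at least as high as Nr4a1 and Npas4. For Fos r was -0.17 (permutation P = 0.585, rho = -0.04) and for Arc 0.13 (permutation P = 0.718, rho = 0.31).

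Within a tissue, Fos was related to none of the other 9 genes after adjustment over the 18 relations. Its highest r was with Npas4 in hippocampus (0.59, permutation P = 0.0695, adjusted P = 0.709, rho = 0.21, permutation P = 0.561). That relation rested on 2 mice, without which r was -0.32. The lowest r was with Egr3 in cortex (-0.52, permutation P = 0.119, adjusted P = 0.709, rho = -0.33, permutation P = 0.35).

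Among all pairs, computed after the relations of Fos had been seen, r was above 0 for 38 of 45 pairs in hippocampus (median 0.44) and for 24 of 45 in cortex (median 0.02). The pairs share libraries and genes and are not independent, and both genotypes were pooled, so that differences between genotypes enter r. With the genotype means removed, also chosen after the pairs were seen, 36 pairs in hippocampus (median 0.34) and 28 in cortex (median 0.17) were above 0 and 0 of 90 passed (exact permutation within genotypes, 4 pairs in each tissue at an unadjusted P under 0.05). With the genotypes pooled, 1 of the 90 pairs passed after adjustment: Junb with Egr3 in cortex (r = 0.90, permutation P = 0.00031, adjusted P = 0.0279, rho = 0.85, permutation P = 0.00287, adjusted P for rho = 0.129, r without the 2 most extreme mice 0.84), and 0.0447% of all genes were at least as high with Junb there. With the genotype means removed its r was 0.90 and it did not pass (exact permutation P = 0.00285, adjusted P = 0.128). Next were Egr1 with Npas4 in cortex (r = 0.83, permutation P = 0.00209, adjusted P = 0.0794, rho = 0.61, permutation P = 0.0659) and Junb with Egr4 in hippocampus (r = 0.82, permutation P = 0.00353, adjusted P = 0.0794, rho = 0.73, permutation P = 0.02). Egr3 with Egr4 had r = 0.82 in cortex (permutation P = 0.00318, adjusted P = 0.0794, rho = 0.78, permutation P = 0.0107) and r = 0.80 in hippocampus (permutation P = 0.00447, adjusted P = 0.0805, rho = 0.87, permutation P = 0.00207). Fosb with Npas4 reached r = 0.79 in hippocampus (permutation P = 0.00938, adjusted P = 0.141, rho = 0.75, permutation P = 0.0177), which fell to 0.09 without 2 mice. With the genotype means removed, r was 0.74 for Egr1 with Npas4 in cortex (exact permutation P = 0.0946). For Junb with Egr4 in hippocampus it was 0.80 (exact permutation P = 0.0159). For Egr3 with Egr4 it was 0.89 in cortex (exact permutation P = 0.00201) and 0.78 in hippocampus (exact permutation P = 0.0243). For Fosb with Npas4 in hippocampus it was 0.75 (exact permutation P = 0.0342).

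**Figure D5:**
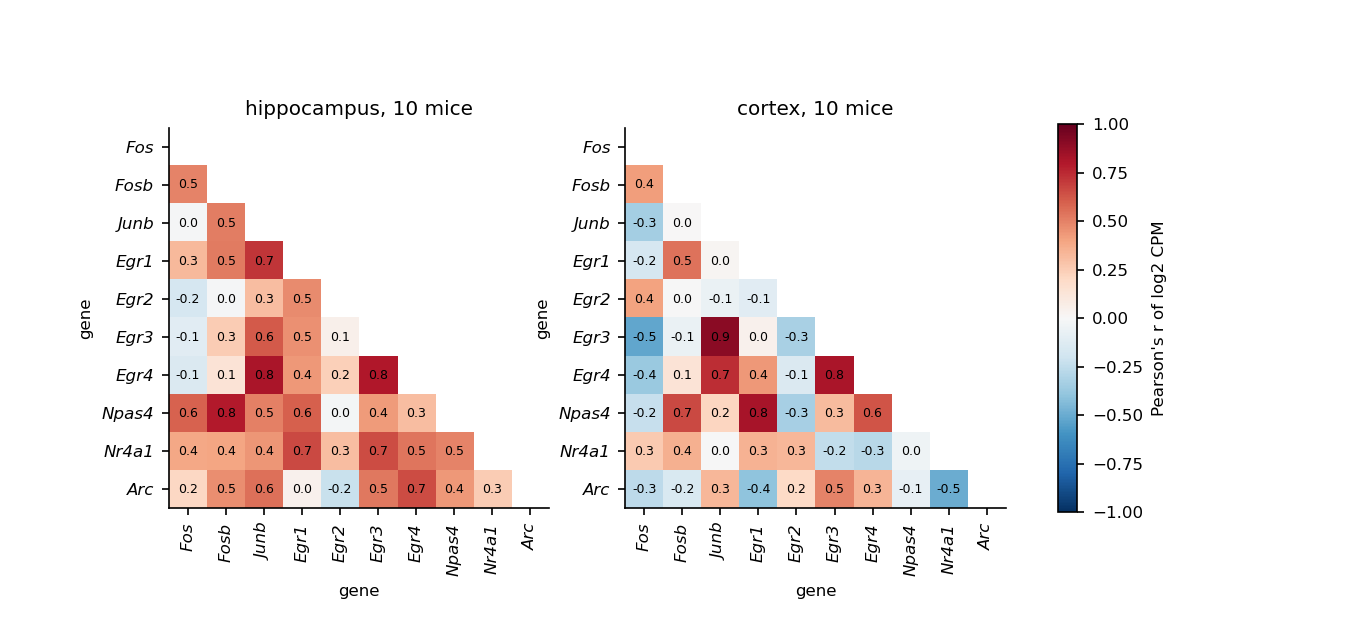
Pearson's r of log2 CPM over the 10 mice, genotypes pooled, for each pair of genes, in hippocampus (left) and cortex (right), from blue (-1) to red (1). Most pairs are above 0 in hippocampus (38 of 45), and in cortex the highest is Junb with Egr3 at 0.90.

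The genes most like the 10 were found by correlation with their mean z-score over the 20 libraries after the group means were taken out, as a description with no test. That score varied most in the Ube3aOE hippocampus (1.17, -0.25, -1.12, 1.05 and -0.85 in mice 6 to 10). In all other libraries it lay between -0.53 and 0.45, so the correlations below rest largely on that 1 group. The first was Klf16, a zinc finger factor (r = 0.83), followed by Kcnj4, an inward rectifier potassium channel (0.76), R3hdml (0.76), Pthlh, the parathyroid hormone related peptide (0.75), Ino80, a chromatin remodeller (0.73), Actn2 (0.70), Erf, an ETS repressor (0.70), Lamp5 (0.69), Cxcl14, a chemokine (0.69), and Moxd1 (0.68). The most opposite were Paip1, which binds the poly(A) binding protein (-0.73), Gpr1 (-0.72), Ddx25 (-0.71), Ube3c, a ubiquitin ligase (-0.71), and Tbc1d12 (-0.70). R3hdml and Gpr1 were at 0.525 and 0.555 CPM on average. Lamp5 is among the neocortex markers. The median r of the other rapid response genes was 0.13, beside 0.0080 for all genes. Among marker lists of neighbouring tissue it was 0.36 for striatum (lowest 0.35, highest 0.56), 0.16 for choroid plexus, -0.36 for meninges (highest -0.14) and -0.49 for thalamus (highest -0.23), so that both directions occurred. In hippocampus the most striatum markers were those of mouse 9 (387 CPM, score 1.05), and the most thalamus markers those of mouse 10 (1172 CPM, score -0.85).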

How the data were processed

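Messenger RNA of the hippocampus and cortex of 5 WT and 5 Ube3aOE mice was sequenced as stranded libraries. The authors deposited 1 table of read counts per library, whole numbers for 47729 genes without normalization, and their processing notes name HISAT2 2.1.0, HTSeq 0.11.2 and GRCm38. The strand setting of the counting is not given in the sources used here, and reads aligned to more than 1 place were not counted on genes. The share of reads on genes was 69.7% to 81.2%, and all other reads stayed out of the totals. Counting precision is limited for genes of few reads (10 to 40 reads for Fosb).

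Counts were normalized with TMM factors and fitted in edgeR 4.0.16 (R 4.3.3, filterByExpr, robust quasi-likelihood test), per tissue for genotype and over all 20 libraries for tissue and interaction, with Benjamini-Hochberg adjustment over all genes tested and a threshold of 0.05. Log2 CPM used a prior count of 2, and CPM was divided by exon length (GENCODE M21) between genes. Correlations had two-sided permutation tests with 100000 pairings, adjusted within a family of 10, 18 or 90. Pairs of genes were also tested with the genotype means removed, over all 14400 exact permutations of mice within genotypes. DESeq2 1.42.0, limma voom 3.58.1, other size factors, no filter, the labelled sex, a mouse block and leaving out mice or libraries were alternatives. The same mouse gave both tissues. Deviations of its 2 libraries from their group means correlated with a median r of 0.22 across genes (above 0.1 in 9 of 10 mice), and mouse as a block changed no call of the 10 genes. The fits were tested on simulated data with the same spread for every gene. Only genes with more reads on average than Fosb and Egr2 were changed there, so these genes, and others of few reads or wide spread, were not covered.

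The 10 genes, the lists and the marker genes were chosen with earlier results of these data known. Named were the 10 genes, Ube3a, up to 4 called genes with the smallest P per list, and the 10 genes most like and 5 least like their mean z-score. Promoter windows came from RefSeq (GRCm38.p6). Nothing says that the mice came from separate litters. The P values of the main fits rest on the spread between these libraries, taken as independent. Differences between litters cannot be told apart from it.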

Additional observations from a re-analysis of the deposited data

Results flagged for a closer look

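In the 40 groups of 5 values (10 genes, 4 groups), 3 held a value far from the other 4 by Dixon's ratio, where chance gives about 1 in 20 groups. Arc in the hippocampus of WT mouse 2 was the lowest of its group at 11.0 CPM, with the nearest value at 18.0 CPM and a ratio of 0.768 against a limit of 0.71. Egr1 in the same library was the highest of its group at 64.7 CPM, with the nearest value at 40.9 CPM and a ratio of 0.959. That library also had the most neocortex markers in hippocampus (651 CPM), and the part of these in both values was not tested. Junb in the hippocampus of WT mouse 5 was the highest of its group at 14.1 CPM, with the nearest value at 11.7 CPM and a ratio of 0.79.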

How the results depend on the processing

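Arc, Fos, Fosb and Egr3 were higher in hippocampus in all 18 alternatives, and all 4 passed the test in 17 of them. With the set-apart libraries left out, a choice made after seeing the data, Fosb lost its call (adjusted P = 0.0586). None of the 10 genes passed between genotypes or in the interaction in any alternative. Without the set-apart libraries, only mice 6 and 8 remained in the Ube3aOE hippocampus, too few for a lack of calls to mean much. With mouse as a replicate block the same 4 genes passed, 8662 genes in all passed between tissues against 7934 without it, and it changed no call of the 10. The block raised the adjusted P of edgeR to 0.000966 for Fos (standard error 0.21) and 2.65e-06 for Arc. It lowered that P to 0.00312 for Egr3 and 0.00275 for Fosb. Over all genes, the labelled sex as a covariate gave 2 genes between genotypes in hippocampus against 1, and DESeq2 gave 4 in cortex against 1. Sex-linked genes went against the labelled sex in WT mice 3 and 5, so that covariate is not a sound adjustment for sex. Of 1829 alternative values, 1784 were labelled as the same, under wide rules. A fold change or correlation had to keep its direction and side of the threshold, so values that never passed counted as the same. A count had to stay of like size, a mean within its SD, and a likeness within its own 95% interval. The total is therefore a weak measure of stability.

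Changes of sign were all of values that did not pass a test. Without the set-apart libraries the log2 fold change was -0.0094 for Egr3 and -0.036 for Junb between genotypes in cortex, 0.11 for Egr3 in hippocampus, and 0.13 for Egr3 and -0.015 for Fosb in the interaction. The interaction of Fos was -0.011 with limma voom and -0.0089 with mouse as a replicate block. With 1 mouse left out at a time, the fold change between genotypes ranged from -0.21 to 0.0095 for Arc in hippocampus, and in cortex from -0.13 to 0.061 for Egr2, -0.18 to 0.015 for Egr4 and -0.024 to 0.19 for Junb. The interaction ranged from -0.31 to 0.024 for Egr1, -0.49 to 0.025 for Egr2, -0.28 to 0.13 for Egr4 and -0.21 to 0.35 for Fos, and the difference between tissues from -0.12 to 0.035 for Egr1. Pearson's r between tissues ranged from -0.30 to 0.064 for Fos and -0.084 to 0.32 for Arc, and that of Fosb with Fos in hippocampus from -0.29 to 0.64. Junb with Egr3 in cortex kept r at 0.90 with the genotype means removed but not its call (adjusted P = 0.128). The cause of these changes was not tested. Counts of 10 to 40 reads limit what can be seen for Fosb.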
